A study of Mus musculus with 14 samples.

Results

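The genes of the subcortical maternal complex were followed in single cloned mouse embryos as a readout of RNA left from the oocyte. The 8 genes Nlrp5, Ooep, Tle6, Khdc3, Padi6, Nlrp2, Nlrp4f and Zbed3 were chosen by name, out of 20242 gene symbols in the deposited tables, and each had 1 RefSeq entry among 25650. All 14 libraries came from single embryos at the two-cell stage made by somatic cell nuclear transfer (SCNT) in the hybrid strain B6D2F1, collected at 28 h. The labels count this time from nuclear transfer and the study's methods from egg activation. Oocytes came from superovulated females of 8 to 10 weeks, and the donor nuclei were those of cumulus cells. Every embryo was activated in strontium with cytochalasin B and cultured with deionized bovine serum albumin. There were 3 Control embryos with neither agent, 1 VC(0-8h) embryo, 2 VC(8-15h), 3 TSA(0-8h), 2 TSA(0-8h)+VC(0-8h) and 3 TSA(0-8h)+VC(8-15h) embryos. TSA is trichostatin A, an inhibitor of histone deacetylases, given at 50 nM, and VC is vitamin C, given at 10 µg/ml, in the hours after activation that the names state.

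The subcortical maternal complex is a protein assembly that the growing oocyte builds under its cortex and passes to the early embryo. NLRP5, OOEP, TLE6 and KHDC3 form its core, and the other genes followed here encode proteins found with it. Most of its RNAs are made chiefly in the oocyte and belong to the maternal RNAs that are cleared around the two-cell stage, while several of its proteins last longer and are needed for cleavage beyond that stage. In a cloned embryo such RNA can therefore come from the recipient oocyte or from new transcription by the donor genome, which cannot be told apart here.

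Between 3021540 reads in TSA(0-8h) replicate 1 and 13589389 in Control replicate 3 were counted per embryo, and between 3322 and 6728 entries had at least 1 RPKM (a transcript's reads divided by its length and by the reads counted in the library). Of 9 µl of RNA from an embryo, 2 µl entered the library, followed by 2 rounds of PCR of 14 and 12 cycles, so reads are not independent molecules. RPKM is a share of a library, so less RNA of 1 gene and more RNA of the rest cannot be told apart. All 6 oocyte markers (Zp1, Zp2, Zp3, Gdf9, Bmp15 and Mos) were detected in the set, with a summed level between 97.3 and 832 RPKM per embryo. Only 1 of them, Bmp15 (91.3 to 520 RPKM), was at 1 RPKM or more in all 14 embryos, and Mos was at 0 in 7. Of 18 markers of cumulus and granulosa cells, 14 were below 1 RPKM in every embryo, among them the follicle-stimulating hormone receptor gene Fshr. The 18 summed to between 1.25 and 185 RPKM per embryo, and 1 of them was at 1 RPKM or more in all 14 embryos. The 8 two-cell embryo markers summed to between 4.63 and 470 RPKM, lowest in Control replicate 2.

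The transcripts lie on 5 mouse chromosomes (mm9). Nlrp5 (NM_011860) spans chr7:24170908-24226941 on the plus strand and Nlrp2 (NM_177690) chr7:5250156-5302637 on the minus strand. Ooep (NM_026480) spans chr9:78223916-78226532 on the minus strand, and Khdc3 (NM_025890) chr9:72949643-72952250 on the plus strand, where it overlaps an exon of Gm20509. Tle6 (NM_053254) is at chr10:81053649-81063818 and Padi6 (NM_153106) at chr4:140283270-140298558, both on the minus strand. Nlrp4f (NM_175290), minus strand, and Zbed3 (NM_028106), plus strand, are at chr13:65278419-65307276 and chr13:96095192-96107796. RefSeq promoters of GRCm38.p6 were searched on both strands over 250 bases before each start, counting overlapping matches. The NOBOX element TAATTG was found in 1 of the 12 promoters of the 8 genes, that of Ooep, against 7.17% of all 32851 promoters. The E-box CANNTG, the motif of the oocyte factor FIGLA, was in 11 of the 12, against 66.2%, with promoters of 1 gene counted separately on both sides. The promoters of Padi6, with 2 E-boxes, and Nlrp2, the gene with none, are printed 5′ to 3′ to show this contrast, with E-boxes in capitals.
Padi6, chr4:140742644-140742893, minus strand: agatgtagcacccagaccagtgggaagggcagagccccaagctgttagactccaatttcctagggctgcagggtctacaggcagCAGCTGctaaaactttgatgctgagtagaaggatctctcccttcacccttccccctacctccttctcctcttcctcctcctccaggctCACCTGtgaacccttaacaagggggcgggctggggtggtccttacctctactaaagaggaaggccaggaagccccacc
Nlrp2, chr7:5351036-5351285, minus strand: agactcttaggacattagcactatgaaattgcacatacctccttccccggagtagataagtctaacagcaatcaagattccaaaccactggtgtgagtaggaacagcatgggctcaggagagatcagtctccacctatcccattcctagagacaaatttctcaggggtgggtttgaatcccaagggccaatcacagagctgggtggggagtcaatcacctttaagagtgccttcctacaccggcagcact

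Zbed3, which encodes a zinc finger protein of the complex, was the only one of the 8 genes at 1 RPKM or more in every embryo. Its level ran from 309 RPKM in VC(8-15h) replicate 2 to 3072 RPKM in Control replicate 3, and it made up between 52.5% and 97.9% of the summed RPKM of the 8 genes. Nlrp5 reached 1 RPKM in 12 of 14 embryos, Padi6 and Nlrp4f in 9, Tle6 in 8, Ooep and Nlrp2 in 3 and Khdc3 in 1. Over all entries at this level in at least 3 embryos (8249), the median was 7.0 embryos and 10.3% reached it in all 14. Of 30 other oocyte and maternal RNAs, 11 did. Khdc3 and the other 6 genes besides Zbed3 were thus seen in some embryos and missed in others of the same treatment.

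**Figure D1:**
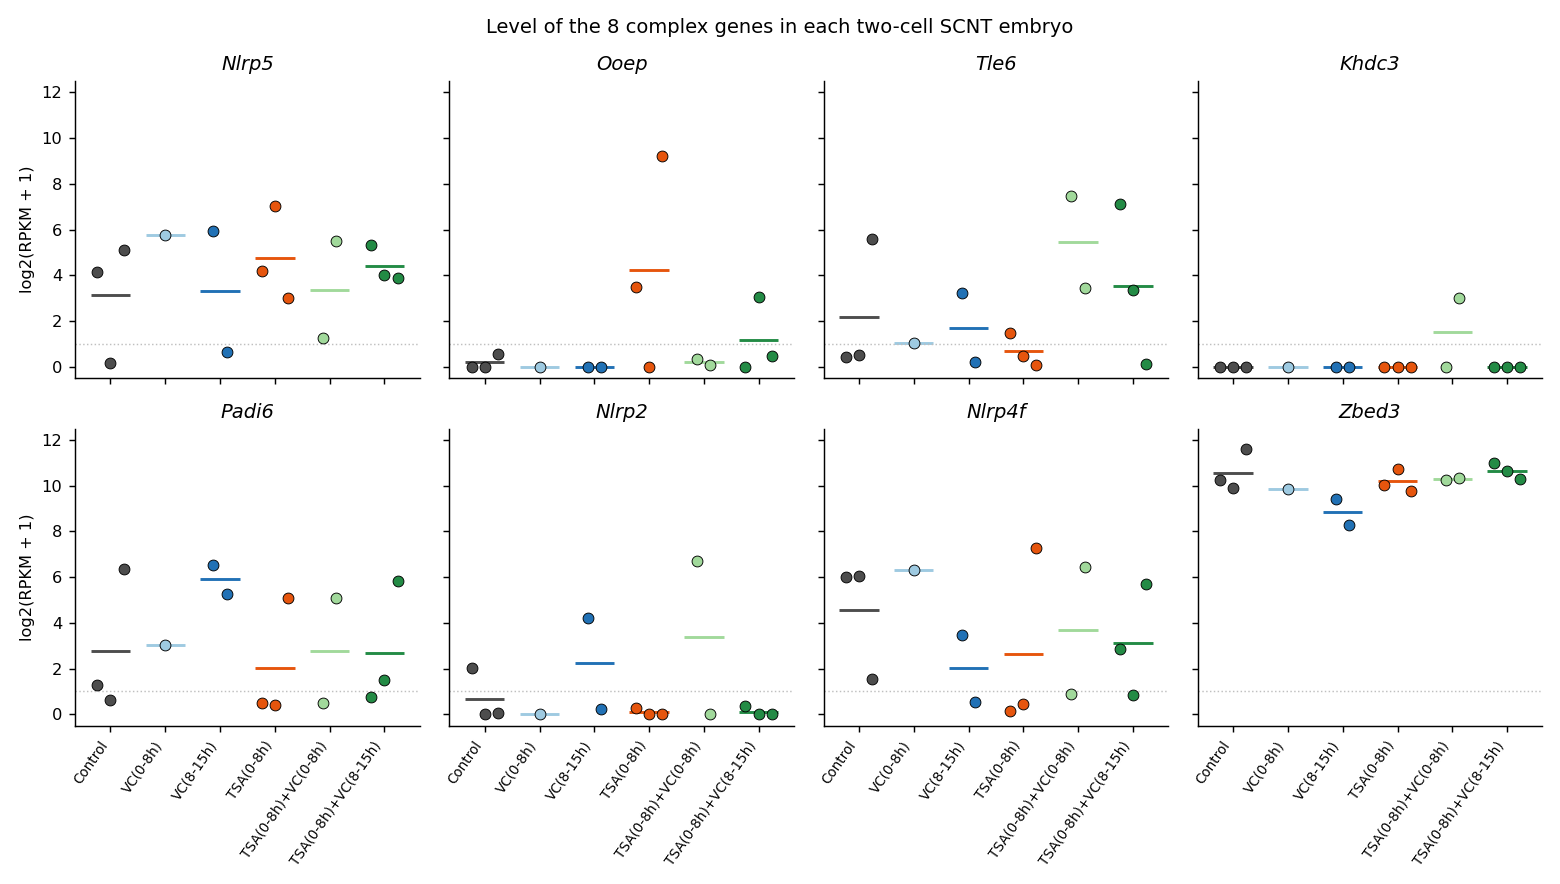
Level of each gene, as log2(RPKM + 1), in the 14 embryos by treatment, with each point 1 embryo in replicate order, each bar the mean of its group and the dotted line 1 RPKM. Zbed3 lies high in every embryo, Khdc3 is above 0 in 1 embryo, and the other genes range from near 0 to above 100 or, for Padi6, 92.0 RPKM.

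Among the core genes, Nlrp5, the NLR-family scaffold also called Mater, had 16.5, 0.124 and 34.0 RPKM in the Control embryos. It had 17.5, 131 and 7.03 RPKM with TSA(0-8h), and 39.1, 15.2 and 13.9 RPKM with TSA(0-8h)+VC(8-15h). The VC(0-8h) embryo had 53.8 RPKM, the VC(8-15h) embryos 61.05 and 0.563 RPKM and the TSA(0-8h)+VC(0-8h) embryos 1.40 and 44.1 RPKM. All 8 embryos given TSA were at 1 RPKM or more, against 4 of the 6 without it, and the levels of both sets overlapped. Part of Nlrp5 is shared with other loci: 9.89% of its 50-base windows occur elsewhere in mm9, and 8.69% occur in transcripts of Vmn1r90, so some of its reads may be split.

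Ooep, the KH-domain protein gene also called Floped, was concentrated in 1 embryo. TSA(0-8h) replicate 3 had 8570 reads (604 RPKM), which was 97.0% of the RPKM summed over the 14 embryos. The other TSA(0-8h) embryos had 37 reads and 0 reads, and TSA(0-8h)+VC(8-15h) replicates had 0, 68 and 6 reads. Both TSA(0-8h)+VC(0-8h) embryos had 1 read. Without TSA, Control replicate 3 had 8 reads, and the other 5 embryos had 0. Were reads independent, a count of 0 would allow up to 3 reads, which is between 0.252 and 0.583 RPKM of Ooep in the 7 embryos concerned. After amplification this describes sequencing depth and is no bound on the RNA in the embryo.

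Tle6, the Groucho-family member of the core, was uneven in 5 of the treatments, the sixth having 1 embryo. Its 2 highest levels, 177 RPKM in TSA(0-8h)+VC(0-8h) replicate 1 and 138 RPKM in TSA(0-8h)+VC(8-15h) replicate 1, made up 79.9% of its sum. The Control embryos had 0.366, 0.434 and 47.2 RPKM, and the TSA(0-8h) embryos 1.81, 0.381 and 0.0422 RPKM. The other TSA(0-8h)+VC(8-15h) embryos had 9.39 and 0.0808 RPKM, the other TSA(0-8h)+VC(0-8h) embryo 9.92 RPKM, the VC(8-15h) embryos 8.30 and 0.151 RPKM and the VC(0-8h) embryo 1.05 RPKM. High and low embryos occurred with and without each agent.

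Khdc3, the KH-domain protein gene also called Filia, had 155 reads (7.02 RPKM) in TSA(0-8h)+VC(0-8h) replicate 2 and 0 reads in the other 13 embryos. There a count of 0 would allow between 0.131 and 0.589 RPKM, again as a limit of depth only. That embryo was the only one with reads of all 8 genes, and it had the most entries at 1 RPKM (6728).

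Among the associated genes, Padi6 encodes the arginine deiminase-family protein needed for cytoplasmic lattices. It had 1.42, 0.562 and 80.2 RPKM in Control embryos, 0.426, 0.329 and 33.1 RPKM with TSA(0-8h) and 0.691, 1.82 and 56.3 RPKM with TSA(0-8h)+VC(8-15h). The VC(8-15h) embryos had 92.0 and 37.9 RPKM, the TSA(0-8h)+VC(0-8h) embryos 0.394 and 33.1 RPKM and the VC(0-8h) embryo 7.14 RPKM. In each treatment with 3 embryos the third replicate was the high one. These came from 1 pool (pool 3, read from the library identifier) and were the deepest of their groups. Across the 14 embryos the Spearman correlation of Padi6 with the reads counted was 0.64, a description over libraries that share pools and depth.

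Nlrp2, an NLR-family gene, had 1146 reads (103 RPKM) in TSA(0-8h)+VC(0-8h) replicate 1 and 596 reads (17.8 RPKM) in VC(8-15h) replicate 1, together 97.0% of its sum. Control replicate 1 had 56 reads (3.03 RPKM), 6 embryos had 0 reads and the remaining 5 between 1 and 4 reads.

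Nlrp4f, an NLR-family gene whose protein is also tied to the lattices, had 64.3, 65.3 and 1.96 RPKM in Control embryos. It had 0.0938, 0.363 and 155 RPKM with TSA(0-8h), and 6.27, 0.803 and 51.2 RPKM with TSA(0-8h)+VC(8-15h). The VC(0-8h) embryo had 79.3 RPKM, the VC(8-15h) embryos 10.2 and 0.475 RPKM and the TSA(0-8h)+VC(0-8h) embryos 0.869 and 85.9 RPKM. The groups overlapped, and TSA(0-8h) held both the highest and the lowest embryo of the 14. Of its 50-base windows, 7.13% occur elsewhere in the genome.

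**Figure D2:**
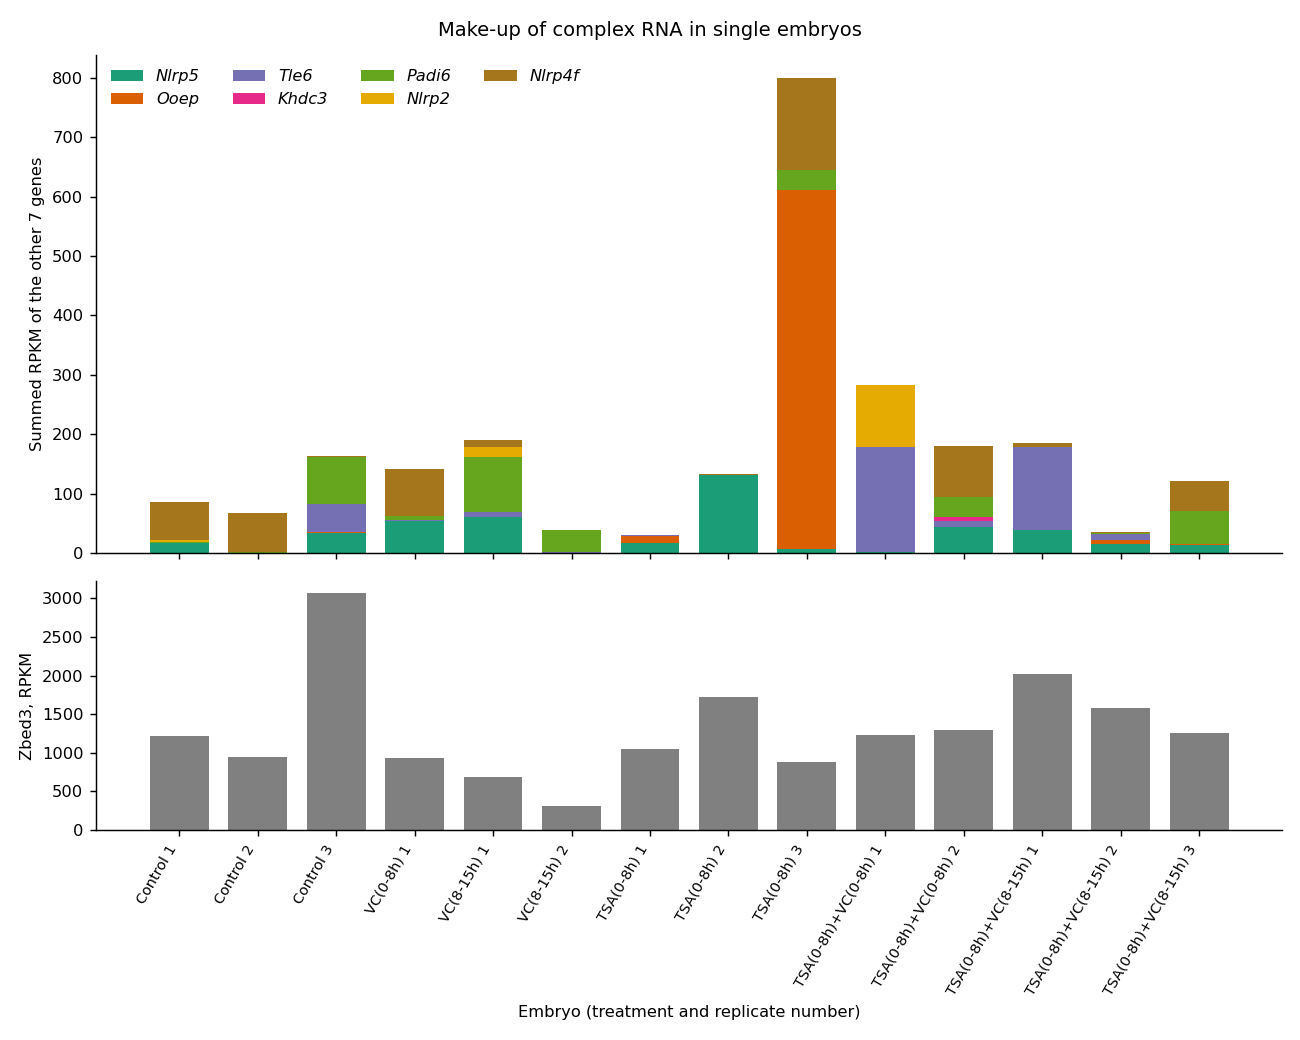
Upper panel, summed RPKM of the 7 genes other than Zbed3 in each embryo, stacked by gene; lower panel, RPKM of Zbed3 in the same embryos. The leading gene of the upper panel changes from embryo to embryo, and the tallest bar, TSA(0-8h) replicate 3 with 799 RPKM, is mostly Ooep.

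The 7 genes other than Zbed3 did not rise and fall as a unit. Their summed level ran from 30.2 RPKM in TSA(0-8h) replicate 1 to 799 RPKM in TSA(0-8h) replicate 3. The leading gene was Nlrp4f in 4 embryos, Padi6 in 4, Nlrp5 in 3, Tle6 in 2 and Ooep in 1, and it supplied between 44.2% and 99.2% of the sum. Over the 28 pairs of the 8 genes, Spearman correlations across the 14 embryos had a median of 0.04, given as a description only. They ran from -0.27 (Nlrp2 with Nlrp4f) to 0.52 (Tle6 with Zbed3), and the highest without Zbed3 was 0.48 (Tle6 with Nlrp2). Ooep, Nlrp2 and Khdc3 lay at or below 3 reads in 9, 9 and 13 embryos, which limits what their correlations can show. Between 2 and 6 of the 8 genes were at 1 RPKM or more in an embryo. That number was 2 in Control replicate 2, VC(8-15h) replicate 2 and TSA(0-8h) replicate 2, all from pool 2, which held 6 of the 14 embryos. These embryos also had the fewest entries of any gene at 1 RPKM or more, 3819, 3322 and 3556. The number of complex genes was 6 in VC(8-15h) replicate 1 and in TSA(0-8h)+VC(0-8h) replicate 2, the latter also from pool 2. Those 2 embryos had the most such entries, 6342 and 6728. The remaining pool 2 embryos, VC(0-8h) replicate 1 and TSA(0-8h)+VC(8-15h) replicate 2, had 5 complex genes at this level.

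Such unevenness was not particular to these genes. The standard deviation of log2(RPKM + 1) over the 14 embryos was 2.08 for Nlrp5, 2.58 for Ooep, 2.63 for Tle6, 2.49 for Padi6, 2.03 for Nlrp2 and 2.72 for Nlrp4f, and its median was 2.16 over the 8249 entries and 2.24 over the 30 other oocyte and maternal RNAs. Zbed3 stood at 0.77, below the value of all but 1.78% of the entries. Bmp15, which encodes a growth factor that the oocyte secretes, had the same standard deviation of 0.77, with levels between 91.3 and 520 RPKM.

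**Figure D3:**
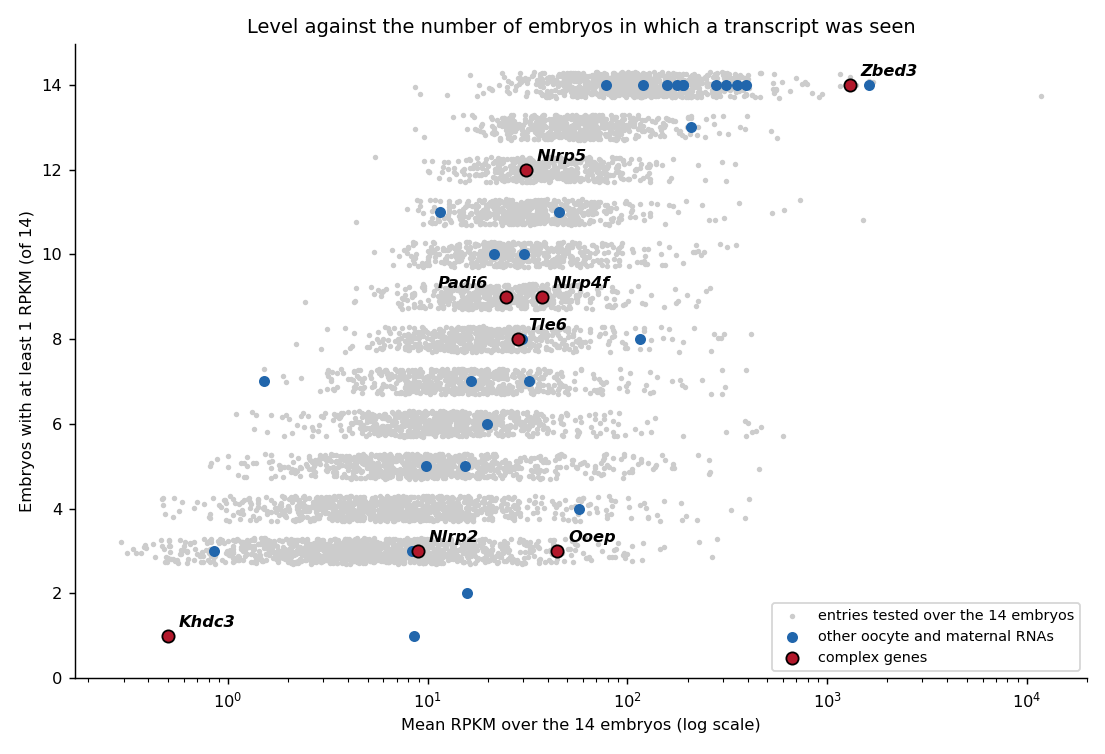
Mean RPKM over the 14 embryos (log scale) against the number of embryos with at least 1 RPKM, for 8249 entries (grey, shifted at random by up to 0.3 embryos for display), 30 other oocyte and maternal RNAs (blue) and the 8 complex genes (red). Ooep, seen in 3 embryos, has a higher mean than Nlrp5, seen in 12, because its mean rests on 1 embryo.

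The first comparison asked whether the sequential treatment changed the remaining RNA of the complex. Against Control, Zbed3 differed by 0.06 ± 0.39 (SE, n = 3 and 3) on the log2(RPKM + 1) scale in TSA(0-8h)+VC(8-15h) embryos, Nlrp5 by 1.27 ± 1.78 and Nlrp4f by -1.41 ± 1.88. These 3 genes had at least 1 RPKM in all embryos of a group, Nlrp4f through the Control group alone and Nlrp5 through the treated group alone, and 0 of them passed an adjusted p of 0.05 in limma (Benjamini-Hochberg over 3416 entries). The background was 0.0293% of entries called. An unadjusted p under 0.05 in limma was found for 0 of the 3 genes and for 18.4% of entries. For 0 of the 3 genes did the embryos of both groups separate, against 16.2% of entries with every treated embryo above every Control embryo and 5.71% with every one below. The median difference of all entries was 0.78, and with median-ratio scaling, which brought it to 0.08, Zbed3 turned to -0.77. In 95% confidence intervals, Zbed3 lay between -0.76 and 0.89, and Nlrp5 between -2.47 and 5.02.

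With TSA(0-8h) against Control, 0 of 3 genes tested were called by limma, against 0.119% of 2529 entries (0.0791% higher and 0.0395% lower). An unadjusted p under 0.05 in limma was found for 0 of the 3 and for 15.2% of entries. For 0 of 3 did the groups separate, against 6.76% of entries above and 11.8% below Control. Zbed3 had 1054, 1721 and 883 RPKM with TSA(0-8h) and 1219, 941 and 3072 RPKM in Control. The ranges overlapped, and the difference was -0.38 ± 0.44 (SE, limma adjusted p = 0.783). Nlrp5 differed by 1.61 ± 2.11 and Nlrp4f by -1.93 ± 2.21, Nlrp4f again tested through the Control group and Nlrp5 through the TSA group, beside a median of -0.38 over all entries.

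For Zbed3, both comparisons with Control turned on the test. A fit of recovered reads with limma-voom called Zbed3 lower than Control in both, by -1.01 with TSA(0-8h) (adjusted p = 0.0179, 4.87% of entries called) and by -0.68 with TSA(0-8h)+VC(8-15h) (adjusted p = 0.0229, 5.56% called). This test weights deeper libraries more, and Control replicate 3, the deepest, had the highest Zbed3 level. Without that embryo the same limma-voom fit gave 0.06 (adjusted p = 0.964) and 0.40 (adjusted p = 0.425), so the calls rested on it. Within the 3 pools the difference in log2(RPKM + 1) was -0.21, 0.87 and -1.80 for TSA(0-8h) and 0.73, 0.75 and -1.29 for TSA(0-8h)+VC(8-15h), of mixed sign in both. Of the 50-base windows of Zbed3, 22.0% also occur on chromosome 6, and how reads with several matches were treated is not given in the sources used here.

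The effect of late VC on top of TSA was compared between TSA(0-8h)+VC(8-15h) and TSA(0-8h). The embryos with both agents had 2022, 1579 and 1253 RPKM of Zbed3, overlapping those with TSA alone. Zbed3 differed by 0.44 ± 0.33 (SE) and Nlrp5 by -0.34 ± 1.68, and 0 of these 2 genes were called by limma or by limma-voom, with 0 at an unadjusted p under 0.05. In limma 0 of 3243 entries (0%) passed, while 18.6% had an unadjusted p under 0.05, and limma-voom called 9.65%. For 0 of the 2 genes did the groups separate, against 18.3% of entries above and 3.42% below TSA alone. The median over all entries was 1.18, and with median-ratio scaling, which brought it to 0.04, Zbed3 turned to -0.88.

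**Figure D4:**
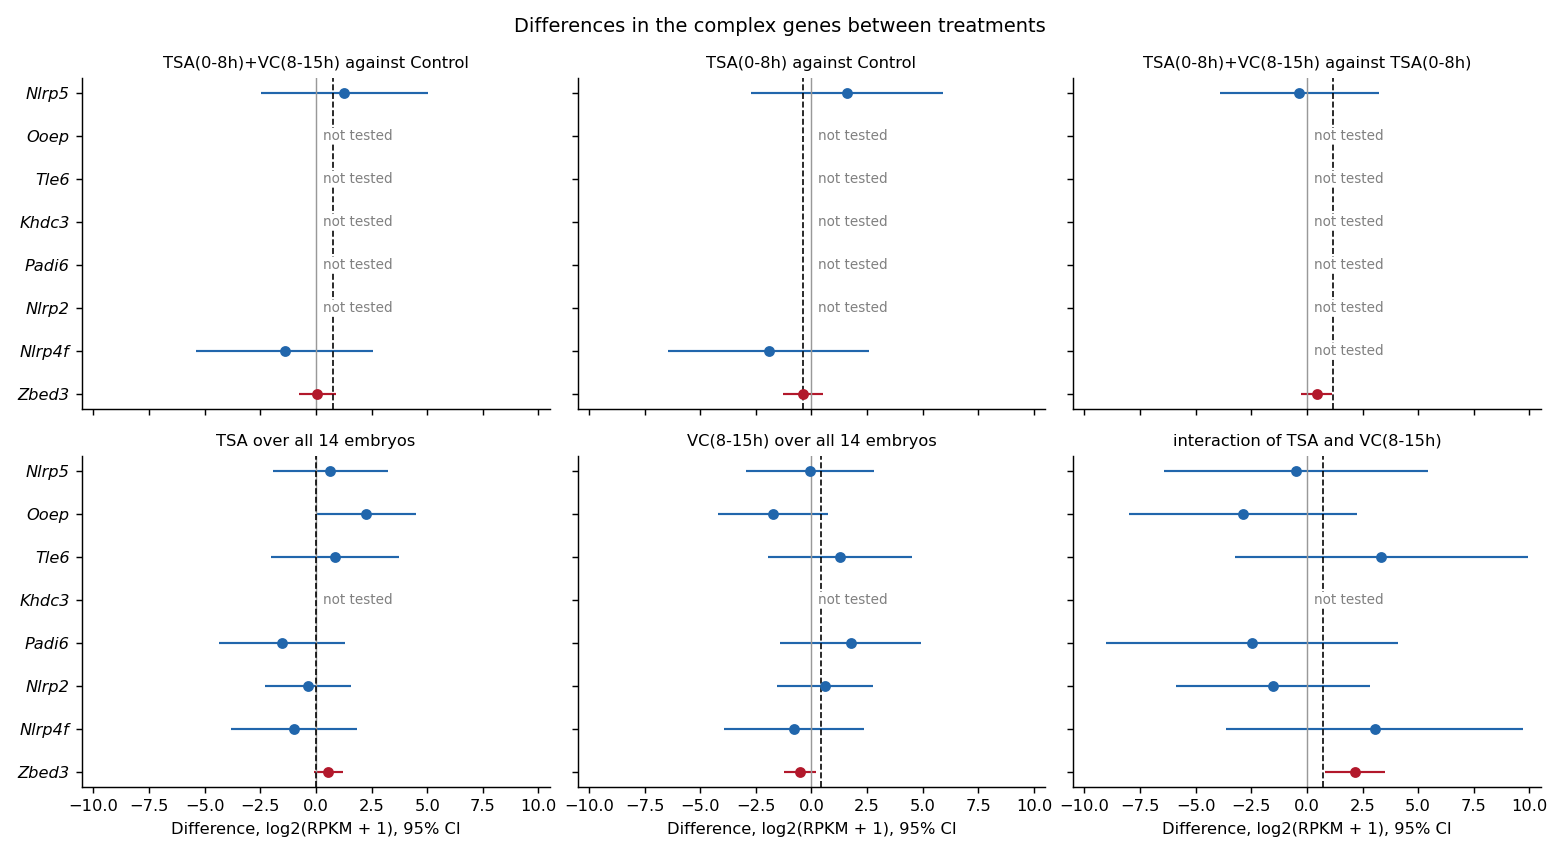
Difference of each gene on the log2(RPKM + 1) scale with its 95% confidence interval from limma, for 6 comparisons, with Zbed3 in red and the median of all entries as a dashed line; genes marked as not tested fell under the filter on low values. Intervals are wide for all genes but Zbed3, and 2 of them leave out 0, those of Ooep for TSA and of Zbed3 for the interaction. Ooep passed the filter only through embryos given TSA, with or without VC.

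Over all 14 embryos, 7 of the 8 genes could be tested, all but Khdc3. In limma 0 of 7 differed among the 6 treatments (0.0485% of 8249 entries called), with 1 at an unadjusted p under 0.05 (4.75% of entries), Zbed3 (limma adjusted p = 0.889), and 0 were called by limma-voom (0.121% of entries called). With TSA taken over all embryos, 8 against 6, 0 of 7 were called by limma (0.0242% called) or limma-voom (0.0121% called). Ooep was the 1 gene with an unadjusted p under 0.05 (4.59% of entries). It differed by 2.26 ± 1.10 (SE, limma adjusted p = 0.974), with 1 RPKM reached in 3 of 8 embryos given TSA and in 0 of 6 without. Ooep thus passed the filter on low values only through embryos given TSA, with or without VC. This is the group where it is high, and its difference is no support for an effect. Without TSA(0-8h) replicate 3 the difference fell to 1.11 (limma adjusted p = 0.971). Padi6 differed by -1.53 ± 1.41 and Zbed3 by 0.55 ± 0.32 in the same fit. For 0 of 7 genes did the embryos with and without TSA separate, against 0.0242% of entries above and 0.0606% below.

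For VC(8-15h) over all embryos, 0 of 7 genes were called by limma (0.0242% called) or limma-voom (0.0121% called), and 0 had an unadjusted p under 0.05 in limma (6.32% of entries). Differences ran from -1.73 ± 1.23 for Ooep to 1.76 ± 1.57 for Padi6. Both VC(8-15h) embryos, at 687 and 309 RPKM of Zbed3, were below all other 12 embryos, of which the lowest had 883 RPKM. Such a place was found for 0.400% of 8249 entries, and one above all others for 0.739%, and Zbed3 was the only one of the 7 genes tested in it. The embryos that received VC(8-15h) after TSA were not low. The difference between the late VC effect with and without TSA was 2.16 ± 0.67 for Zbed3 (SE, limma adjusted p = 0.903), so it failed the correction. Zbed3 alone of the 7 genes had an unadjusted p under 0.05, as had 4.44% of entries. In limma 0 of 8249 entries (0%) passed the correction, and limma-voom called 0.0242% of entries and 0 of the 7 genes. The median interaction of all entries was 0.72. With median-ratio scaling, which brought that median to -0.02, the interaction of Zbed3 was 0.50 ± 1.16 (limma adjusted p = 0.965).

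The 9 genes that control the complex or bind its proteins were described alongside, and 0 of them were called in any of the 7 tests. Ube2d3, a ubiquitin-conjugating enzyme gene, Cfl1, which encodes the actin-severing protein cofilin, and Ywhae, a 14-3-3 gene, had the highest means, at 130, 119 and 102 RPKM, and each was at 1 RPKM or more in all 14 embryos. Cfl1 differed by 3.15 ± 1.01 for VC(8-15h) over all embryos (limma adjusted p = 0.566), Ube2d3 by -1.14 ± 1.02 and Ywhae by 0.87 ± 1.05. The highest Cfl1 level, 521 RPKM in VC(8-15h) replicate 2, was 31.4% of its sum over the 14 embryos. The gene of the oocyte transcription factor Figla had 0 RPKM in every embryo, and that of Nobox reached 1 RPKM in 4. Over the list, the median difference was 1.55 for TSA(0-8h)+VC(8-15h) against Control (6 tested, 6 positive), beside 0.78 for all entries, of which 64.7% were positive. It was 0.68 between TSA(0-8h)+VC(8-15h) and TSA(0-8h) (6 tested, 5 positive), beside 1.18, and 0.25 for TSA over all embryos (8 tested), beside -0.01. For the interaction it was -1.01 (8 tested, 7 negative), beside 0.72.

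Of the 30 other oocyte and maternal RNAs, each taken at its entry with the highest mean, 1 was called in any test. Omt2a, an oocyte transcript and the most abundant of the list (26.9 to 6390 RPKM), has 2 entries. The higher was 2.34 ± 0.45 higher in TSA(0-8h) than in Control (limma adjusted p = 0.0121). Over all embryos it was 2.44 ± 0.41 higher with TSA (limma adjusted p = 0.00232) and differed by -2.48 ± 0.46 with VC(8-15h) (limma adjusted p = 0.00831). The other Omt2a entry was called in none of these fits (limma adjusted p = 0.238, 0.974 and 0.877), and with both entries summed the calls were lost (limma adjusted p = 0.0779, 0.0837 and 0.316). For the higher entry of Omt2a, the call of TSA(0-8h) against Control held in 1 of 6 fits that left out an embryo, the one without Control replicate 3, with differences between 1.69 and 2.92. Over all embryos the Omt2a call for TSA held in 14 of 14 such fits and that for VC(8-15h) in 10 of 14. Both were lost with median-ratio scaling (limma adjusted p = 0.928 and 0.0969), without the filter on low values (limma adjusted p = 0.803 and 0.838) and with limma-voom. Quantile normalization also lost the call for VC(8-15h) (limma adjusted p = 0.184). Bpgm and Btg4, the next in level at means of 392 and 353 RPKM, were not called. Over the list the median difference was 0.20 for the sequential treatment against Control (15 tested), -0.08 for TSA(0-8h) against Control (15 tested) and -0.31 for TSA over all embryos (28 tested), beside 0.78, -0.38 and -0.01 for all entries.

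Of 19 genes switched on in the two-cell embryo, 18 were matched and 0 were called by limma in any test. Sp110, Tdpoz2 and Zfp352 had the highest means, at 434, 85.8 and 81.5 RPKM. Sp110 differed by 4.55 ± 1.41 between TSA(0-8h)+VC(8-15h) and Control (limma adjusted p = 0.110) and by 7.22 ± 1.41 against TSA(0-8h) (limma adjusted p = 0.0638). Zfp352 differed by 2.70 ± 1.77 and -1.59 ± 1.00 in the same comparisons (limma adjusted p = 0.448 and 0.439). Tdpoz2 was tested only in the second of them, at -0.23 ± 2.10 (limma adjusted p = 0.967). The list had medians of 3.66 (8 tested) and 3.17 (9 tested) in these comparisons, beside 0.78 and 1.18 for all entries. These cover only the members that passed the filter. A member could pass it through the treated group alone, where it is high, so the medians are no support for an effect.

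The genes most like the complex genes were sought among 2867 entries at 1 RPKM or more in at least 10 embryos, by Pearson correlation across the 14 embryos with the mean standardized level of the 8 genes. They were Rreb1 (r = 0.85), Sms (r = 0.83), Esyt1 (r = 0.83), Morc2a (r = 0.83) and Gm2a (r = 0.81). These are the highest of many values over embryos that share pools and depth, and are given as a description. The 8 genes did not vary as a unit, so their mean is not a level of the complex. It was lowest (-0.78) in VC(8-15h) replicate 2 and highest (0.72) in TSA(0-8h)+VC(0-8h) replicate 2. Those embryos also had the fewest and the most entries at 1 RPKM (3322 and 6728).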

How the data were processed

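The authors extracted RNA from single embryos, amplified it with the Ovation Single Cell RNA-seq System, mapped reads to mm9 with TopHat2 and deposited RPKM values, 1 table per embryo; the counting tool's version is not given in the sources used here. Groups and replicate numbers came from the titles, the pool from the library identifier (pools 1, 2 and 3 held 5, 6 and 3 embryos). The labels do not name the pool as a batch or state which step it stands for. Per the study, nuclear transfer was done in independent experiments for the group given TSA(0-8h)+VC(8-15h). For the other groups the sources used here do not say so, and p-values measure the spread between these embryos, which may be in part technical. The 8 genes and the other lists were chosen with earlier results of these data known. A gene with several entries was represented by the one with the highest mean RPKM. All 8 genes were described, and from each other list the 3 with the highest mean RPKM and any called.

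RefSeq accessions were matched to symbols (25250 of 25650 entries). RPKM values are multiples of 1 read, so whole reads (within 1e-06) and totals were recovered for 14531 of 14532 entries above 0 in at least 2 embryos (99.99%). Where 2 groups were compared, an entry had to reach 1 RPKM in each of the 3 embryos of 1 group, and in fits of all embryos in 3 or more of the 14. Entries were tested on log2(RPKM + 1) with limma 3.58.1 (R 4.3.3; lmFit, eBayes with trend), with Benjamini-Hochberg adjustment over all entries and a threshold of 0.05. The pseudocount of 1 understates changes of low genes. TSA and VC over all embryos were fitted additively, and the treatments and the interaction with 6 group means. Scripts were tested on simulated data. Alternatives were a pseudocount of 0.1, other filters, quantile and median-ratio scaling, entries summed per gene, limma-voom on recovered reads, blocks and leaving out each embryo. The limma-voom fits without Control replicate 3 were added after seeing the data. Coordinates are those of mm9 (GENCODE vM1), and promoters are RefSeq's (GRCm38.p6). Values were computed with pandas 2.3.3 and numpy 2.4.6 under Python 3.11.15, correlations with scipy 1.17.1, and plots with matplotlib 3.10.9.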

Additional observations from a re-analysis of the deposited data

How the results depend on the processing

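Over the alternatives, 130 of 132 counts of complex genes called equalled the 0 reported. The exceptions were the limma-voom fits of both comparisons with Control, with 1 gene called in each, Zbed3, at -0.68 for TSA(0-8h)+VC(8-15h) and -1.01 for TSA(0-8h). Of the differences of single genes, 548 kept their direction and their side of the threshold and 31 turned, none of those past the threshold but the limma-voom value of -0.68. Median-ratio scaling turned Zbed3 to -0.77 for the sequential treatment against Control, 0.065 for TSA(0-8h) against Control and -0.88 between the 2. Limma-voom turned Zbed3 to -0.11 for TSA over all embryos and Nlrp5 to 0.022 for VC(8-15h), as did a pseudocount of 0.1 (0.067), and limma-voom without Control replicate 3 turned Zbed3 to 0.055 for TSA(0-8h) against Control. Leaving out each embryo in turn, differences that changed sign ran as follows. For TSA(0-8h)+VC(8-15h) against Control, Nlrp5 ran from -0.21 to 2.27 and Zbed3 from -0.29 to 0.57. Zbed3 ran from -0.73 to 0.13 for TSA(0-8h) against Control, and Nlrp5 from -1.21 to 0.81 between the treatments. For TSA over all embryos, Nlrp5 ran from -0.11 to 1.39, Tle6 from -0.030 to 1.75 and Nlrp2 from -1.28 to 0.43. For VC(8-15h), Nlrp5 ran from -0.79 to 0.88, Nlrp4f from -1.65 to 0.21 and Nlrp2 from -0.35 to 0.91. For the interaction, Nlrp5 ran from -3.15 to 2.16 and Nlrp2 from -3.51 to 0.48. The cause was not tested. With the replicate number as a block, 0 complex genes were called in any comparison (Zbed3 0.06, limma adjusted p = 0.948, for the sequential treatment against Control), and 20, 4 and 196 entries were called in the 3 comparisons of groups, against 1, 3 and 0. In the 3 comparisons of groups, same-numbered embryos shared a pool, but their deviations correlated between -0.05 and 0.03, so the numbers were not taken as pairs. A pseudocount of 0.1 called 118, 104 and 195 entries, and no filter called 779 entries over the 6 treatments, against 4. Ooep, Nlrp2 and Khdc3 lie at or below 3 reads in 9, 9 and 13 embryos, which limits what depth can show for them.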
